A study of Mus musculus with 28 samples.

Results

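Potassium channel genes were followed through RNA-Seq of the cerebral cortex of mice with a conditional knockout (cKO) in astrocytes. The group held the protein-coding genes of the GRCm38 annotation whose symbol is Kcn followed by 1 letter and a digit, without Kcnj9, Kcnj10, Kcnj16, Kcnk1 and Kcnk2. This rule gave 76 genes of the 21852 protein-coding genes in the TRAP-Seq table. By their symbols they comprised 8 Shaker (Kcna), 2 Shab (Kcnb), 4 Shaw (Kcnc), 3 Shal (Kcnd) and 10 modifier genes (Kcnf, Kcng, Kcns and Kcnv). They further comprised 5 KCNQ (Kcnq), 8 ether-a-go-go (Kcnh), 12 inward rectifier (Kcnj), 12 tandem-pore (Kcnk) and 5 accessory genes (Kcne). The last 7 formed the calcium- or sodium-activated group (Kcnn and Kcnt), in which Kcnu1 was placed by its symbol and not by what opens it.

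The cKO mice carried mGFAP-Cre and 2 loxP-flanked alleles of the α2-Na/K ATPase gene, while littermates of the same sex with loxP/loxP or loxP/+ alleles, listed without the driver, served as Ctrl. Bulk RNA-Seq covered whole cortical tissue, with 4 mice of each genotype at P24 and 4 of each at P17. Translating ribosome affinity purification (TRAP) covered 3 cKO and 3 Ctrl mice at P24, each with an Input library of the lysate and an IP library of the RNA pulled down with an EGFP-tagged ribosomal protein. The tag depends on Cre, so that both TRAP genotypes are taken to carry the mGFAP-Cre driver. The IP therefore marks cells in which this driver was active, which need not all be astrocytes. Which loxP alleles the TRAP Ctrl mice carried beside the driver is not known here. By the listing, bulk cKO and Ctrl differed in the driver, while TRAP cKO and Ctrl are taken to share it. The bulk and TRAP differences between genotypes are thus unlike in this respect.

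Potassium channels let potassium leave or enter the cell and set the resting potential, the shape of the action potential and the firing rate of neurons. Shaker, Shab, Shaw, Shal, KCNQ and ether-a-go-go subunits open with voltage, modifier subunits form no channel alone and join Shab subunits, inward rectifiers pass current best near rest, tandem-pore channels give leak currents, and Kcnn channels open with intracellular calcium. In astrocytes, inward rectifier and leak channels other than those described here are known for taking up the potassium that active neurons release.

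The number of reads on genes was 12603873 to 14575302 per P24 bulk library, 8855488 to 11454729 at P17, 18433087 to 27242445 in Input and 23336491 to 26153084 in IP libraries. A floor of 3 counts came to 0.110 to 0.339 CPM (read counts scaled to the library total) and covers counting error only. In Ctrl mice all 7 astrocyte markers were higher in IP than in Input, with sums of 9799 to 12348 CPM against 930 to 1071 CPM. Of 7 neuronal markers 6 were lower, with sums of 2296 to 2789 CPM against 4664 to 5319 CPM, so that neuronal messages were still present in the IP. Of 4 markers of pericytes and smooth muscle cells, Acta2 (2.47 on the log2 scale) and Pdgfrb (1.01) were higher, Vtn (−1.42) was lower and Rgs5 (−0.15) did not pass. Input cKO replicate 1 stood apart: its log2 CPM correlated across genes with the other Input libraries at 0.956 to 0.963, against 0.987 to 0.993 among those 5. Results that rest on it are given with and without it.

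Of the 76 potassium channel genes, 56 had enough reads for every test described here and 10 for none of them. Those 10 were Kcna7, Kcna10, Kcne1, Kcne3, Kcnj1, Kcnj15, Kcnk7, Kcnk16, Kcnk18 and Kcnv2, and none exceeded 3.19 CPM in any library. The summed level of all 76 genes was 3921 ± 126 CPM (SD, n = 4) in Ctrl bulk at P24 and 3711 ± 159 CPM (SD, n = 4) in cKO bulk. It was 1978 ± 212 CPM (SD, n = 3) in Ctrl Input and 955 ± 32.9 CPM (SD, n = 3) in Ctrl IP. The 3 Ctrl IP libraries, at 919 to 983 CPM, lay below the 3 Ctrl Input libraries, at 1775 to 2198 CPM.

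Levels of different genes were compared per length, as mean TMM-scaled CPM per kb of annotated exon. The bulk and TRAP-Seq libraries were prepared differently and scaled separately, so that a level is read within its own table. In Ctrl bulk at P24 the highest of the 76 was Kcnj4, which encodes a strong inward rectifier, at 51.8 ± 2.74 CPM per kb (SD, n = 4). Kcnh3, an ether-a-go-go family channel, followed at 26.2 ± 0.579 and Kcnf1, a modifier, at 26.1 ± 1.68 CPM per kb. These neighbours differed by less than their spread. Kcnj4 was also the highest in Ctrl Input, at 49.0 ± 11.2 CPM per kb (SD, n = 3), ahead of Kcnc4 at 25.4 ± 4.43 and Kcnf1 at 20.5 ± 3.30 CPM per kb.

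The order was different in the Ctrl IP. Kcnn2, a small-conductance calcium-activated channel, was highest at 14.5 ± 1.45 CPM per kb (SD, n = 3), followed by the modifier Kcns3 at 13.8 ± 0.779, the accessory subunit Kcne1l at 12.9 ± 2.79 and Kcnj4 at 12.7 ± 2.29 CPM per kb. These 4 levels lay within about their SD of each other. Per length, the same genes ranked 23, 12, 52 and 1 of 76 in the Ctrl Input.

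**Figure D1:**
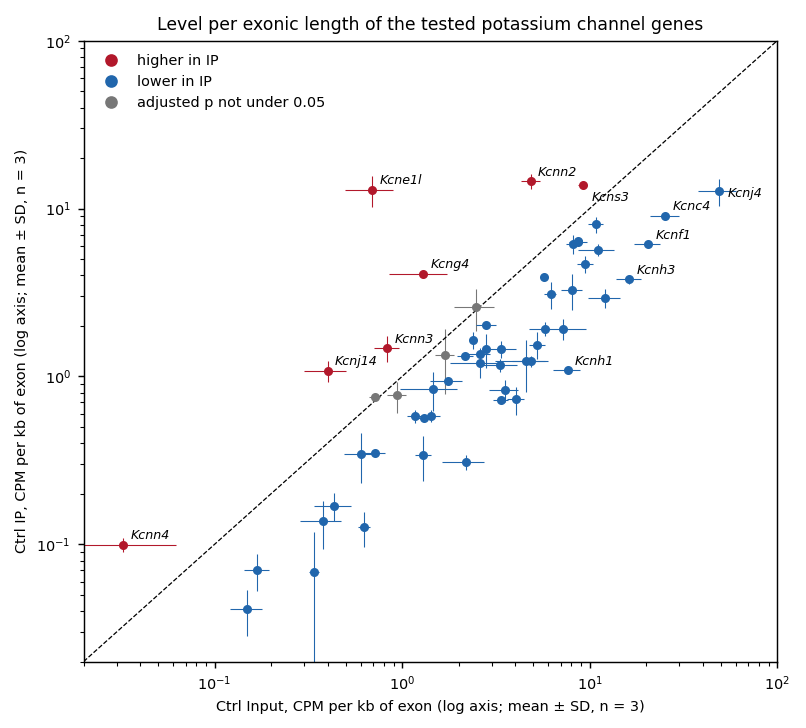
Mean level of 57 tested potassium channel genes in Ctrl Input (horizontal) and Ctrl IP (vertical), in TMM-scaled CPM per kb of exon on log axes, with SD over 3 mice as bars, some of which run past the lower edge. The dashed line marks equal levels; Kcne1l, Kcnn2, Kcng4, Kcns3, Kcnn3, Kcnj14 and Kcnn4 lie above it and passed the test, and 46 of the genes drawn below it passed.

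Within the voltage-gated families, the highest levels per length in Ctrl bulk at P24 were those of Kcna2 (21.7 ± 0.738 CPM per kb), Kcna6 (15.3 ± 1.03) and Kcna1 (14.7 ± 0.372) among Shaker genes, which encode low-threshold axonal channels. Among Shaw genes Kcnc4 was at 24.04 ± 1.67 and Kcnc1 at 21.6 ± 0.404, and among Shal genes, which carry the A-type current of dendrites, Kcnd2 was at 21.4 ± 0.788, Kcnd3 at 8.56 ± 0.568 and Kcnd1 at 2.03 ± 0.177 CPM per kb. Kcnb2, a Shab gene, was at 3.13 ± 0.267 CPM per kb. Of the KCNQ genes, whose products carry the M-current that restrains repetitive firing, Kcnq5 was at 17.4 ± 1.07 and Kcnq3 at 12.9 ± 1.63. In the Ctrl IP, Kcnq5 was at 6.33 ± 0.164 and Kcnq3 at 3.89 ± 0.0833 CPM per kb (SD, n = 3), apart by more than their spread. Kcna2 (6.40 ± 0.329) and Kcna6 (5.65 ± 0.460) led the Shaker genes in the IP, Kcnc4 (9.09 ± 0.495) the Shaw genes and Kcnd2 (6.15 ± 0.791) the Shal genes. Lower levels in the IP were those of Kcna1 (3.08 ± 0.563), Kcnc1 (2.94 ± 0.365), Kcnc2 (1.93 ± 0.187), Kcnd3 (1.37 ± 0.112), Kcnd1 (0.567 ± 0.00974) and Kcnb2 (0.348 ± 0.00559).

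In the Ctrl Input, Kcna6 (11.1 ± 2.42 CPM per kb; SD, n = 3), Kcna2 (8.69 ± 0.358) and Kcna1 (6.19 ± 0.466) led the Shaker genes, and Kcnc1 (12.1 ± 2.34) lay below Kcnc4. Kcnd2 (8.15 ± 0.691), Kcnd3 (2.59 ± 0.335) and Kcnd1 (1.31 ± 0.142) kept the order of the bulk tissue, as did Kcnq5 (8.70 ± 0.987) over Kcnq3 (5.71 ± 0.0646). Kcnb2 was at 0.715 ± 0.0937 CPM per kb. Among the other families Kcnv1 (9.47 ± 0.952) and Kcns3 (9.17 ± 0.452) followed Kcnf1, Kcnh3 (16.3 ± 2.42) stood above Kcnh1 (7.63 ± 1.27) and Kcnh2 (3.53 ± 0.616), and Kcnj3 (10.8 ± 0.985) and Kcnj11 (8.06 ± 1.06) followed Kcnj4. Kcnk12 (5.26 ± 0.527) and Kcnk3 (4.84 ± 0.969) differed by less than their spread and lay above Kcnk4 (2.81 ± 0.0748). Kcnn2 was at 4.85 ± 0.558, Kcnt1 at 4.03 ± 0.408, Kcnn1 at 2.81 ± 0.351, Kcne1l at 0.694 ± 0.201, Kcne4 at 0.137 ± 0.116 and Kcne3 at 0.0792 ± 0.0689 CPM per kb.

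Among the other families in Ctrl bulk at P24, Kcng1 (12.4 ± 1.20 CPM per kb) and Kcnv1 (11.5 ± 0.572) followed Kcnf1 among modifiers, and Kcnh1 (13.9 ± 0.855) and Kcnh7 (9.86 ± 0.985) followed Kcnh3. Kcnj3 (18.9 ± 1.39) and Kcnj6 (14.8 ± 2.01), both G-protein-gated inward rectifiers, followed Kcnj4. The tandem-pore genes were lower, with Kcnk12 at 8.89 ± 0.433, the acid-sensitive Kcnk3 at 7.11 ± 0.409 and the mechanosensitive Kcnk4 at 2.77 ± 0.196 CPM per kb. The Kcnk4 gene overlaps Catsperz on the same strand, so that its reads are uncertain. Kcnh1, Kcnh3, Kcnh7 and Kcnj13 overlap the protein-coding genes Hhat, Mcrs1, Gca and Gigyf2 on the opposite strand. The strand setting of the counting is not known here, so that their reads are uncertain too. The sodium-activated Kcnt1 was at 14.5 ± 0.591, Kcnn2 at 11.7 ± 0.563 and Kcnt2 at 4.34 ± 0.499 CPM per kb. Kcne1l was the highest accessory gene in bulk at 1.72 ± 0.609 CPM per kb, with Kcne2 at 0.353 ± 0.298 and Kcne4 at 0.207 ± 0.0519.

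In the Ctrl IP the levels per length of these families were 6.14 ± 0.136 for Kcnf1, 4.68 ± 0.559 for Kcnv1, 3.79 ± 0.246 for Kcnh3, 2.59 ± 0.716 for Kcnh6 and 1.66 ± 0.191 CPM per kb for Kcnh7 (SD, n = 3). Kcnj3 was at 8.08 ± 0.881, the ATP-sensitive Kcnj11 at 3.28 ± 0.789, Kcnk12 at 1.55 ± 0.285, Kcnk4 at 1.46 ± 0.330, Kcnk3 at 1.23 ± 0.0862, Kcnn1 at 2.04 ± 0.0793 and Kcnn3 at 1.48 ± 0.254 CPM per kb. Apart from Kcne1l, accessory genes were close to undetected in the IP, where Kcne4 was at 0.0808 ± 0.0319 and Kcne3 at 0.0575 ± 0.0337 CPM per kb.

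The first comparison asked which potassium channel messages were enriched in the ribosome pull-down of Ctrl mice. Of the 61 genes tested, 56 passed the test (91.8%, with 71.0% of all 24385 genes tested), 49 of them lower in IP (80.3%, with 35.7% of all genes) and 7 higher (11.5%, with 35.3% of all genes). The test was edgeR's quasi-likelihood test with Benjamini-Hochberg adjustment over all genes tested and a threshold of 0.05. The median log2 fold change of the 61 genes was −1.12, with −0.03 over all genes tested. Every tested Shaker (6), Shab (2), Shaw (4) and Shal (3) gene was lower in IP. Of 7 ether-a-go-go genes 6 were lower, as were 4 of 5 KCNQ, 7 of 8 tandem-pore and 8 of 9 inward rectifier genes. The calcium- and sodium-activated group, which here includes Kcnu1, was divided, with 3 of 7 higher and 3 lower. Among those that did not pass were Kcng2, Kcnh6, Kcnk10 and Kcnu1, with log2 fold changes between −0.34 and 0.07.

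Kcne1l, an X-linked accessory subunit with a single membrane span, had the largest enrichment. It was at 18.2, 24.9 and 16.8 CPM in the 3 Ctrl IP libraries and at 1.05, 1.39 and 0.770 CPM in the Ctrl Input libraries of the same mice. The log2 fold change was 4.21 (standard error 0.23, adjusted p = 2.05e-08 from edgeR), which is 18.5-fold. All IP values lay far above all Input values. The gene (ENSMUSG00000090122) lies on the minus strand of chromosome X from 142304752 to 142306294 in GRCm38.

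Kcng4, a modifier subunit, was at 15.9, 15.96 and 14.7 CPM in IP and at 4.17, 6.84 and 3.75 CPM in Input (log2 fold change 1.65, standard error 0.20, adjusted p = 1.20e-05). Kcns3, a modifier of the same kind, was at 44.4, 45.5 and 40.8 CPM in IP and at 29.4, 30.2 and 27.4 CPM in Input (log2 fold change 0.57, standard error 0.10, adjusted p = 0.000265). In both genes the IP and Input libraries did not overlap. The other tested modifiers were lower in IP, with values from −2.29 for Kcng3 to −1.03 for Kcnv1, or did not pass, as Kcng2 at −0.34.

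Among small-conductance calcium-activated channels, which link calcium signals to the membrane potential, Kcnn2 was at 100, 121 and 104 CPM in IP and at 33.5, 34.1 and 41.0 CPM in Input (log2 fold change 1.57, standard error 0.11, adjusted p = 1.60e-07). Kcnn3 was at 13.7, 18.5 and 14.1 CPM in IP and at 7.92, 10.2 and 8.01 CPM in Input (log2 fold change 0.81, standard error 0.16, adjusted p = 0.000626). In both genes every IP value exceeded every Input value. Kcnn1, the third of these channels, was lower in IP, with a log2 fold change of −0.48, as were the sodium-activated Kcnt1 and Kcnt2. Kcnj14, an inward rectifier, was at 2.93, 3.36 and 2.54 CPM in IP and at 1.22, 1.28 and 0.770 CPM in Input (log2 fold change 1.41, standard error 0.25, adjusted p = 0.000310). It was the only one of 9 tested inward rectifiers on the higher side. The seventh gene on the higher side, Kcnn4 (intermediate-conductance calcium-activated), is not counted on here: it was at 0.526, 0.453 and 0.546 CPM in IP and at 0.295, 0 and 0.205 CPM in Input, so that it passed the filter on low counts (0.405 CPM at this depth) only through the IP libraries. Its log2 fold change of 1.48 in edgeR (adjusted p = 0.0410) did not pass with DESeq2 (adjusted p = 0.0857), with all 12 TRAP-Seq libraries in a single fit (0.0509) or without Ctrl Input replicate 2 or 3 or any Ctrl IP replicate (0.0601 to 0.104).

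**Figure D2:**
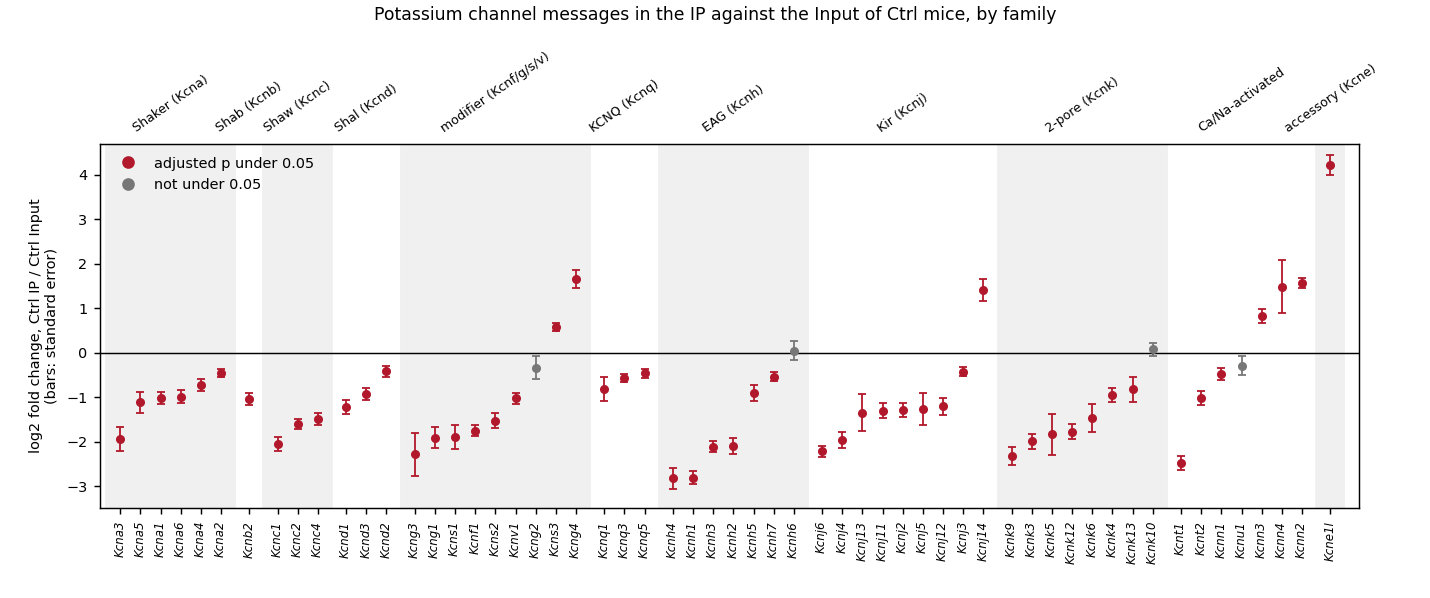
Log2 fold change between IP and Input of Ctrl mice (vertical axis) for 57 tested potassium channel genes, grouped by family along the horizontal axis, with standard errors as bars and red for an adjusted p under 0.05. Kcne1l stands at 4.21, 6 further red genes lie above 0, Kcnh6 and Kcnk10 lie just above it in grey, and all drawn genes of the Shaker, Shab, Shaw and Shal families lie below 0.

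Several ether-a-go-go genes were among the lowest in the pull-down. Kcnh4 was at 1.35, 1.17 and 1.13 CPM in IP and at 8.13, 11.01 and 6.73 CPM in Input (log2 fold change −2.83, standard error 0.23). Kcnh1 was at 8.01, 8.45 and 7.57 CPM in IP and at 55.3, 65.5 and 47.0 CPM in Input (−2.82, standard error 0.14). Both lay far below the Input. Kcnh3 was at 20.7, 21.4 and 23.4 CPM in IP and at 89.6, 109 and 82.3 CPM in Input (−2.11, standard error 0.13). Kcnh2, the delayed rectifier also known from the heart, was at 3.35, 4.23 and 4.52 CPM in IP and at 16.4, 20.4 and 14.6 CPM in Input (−2.10, standard error 0.17). No IP value of these 4 genes reached an Input value, and Kcnh6 of the same family did not differ by more than its spread (log2 fold change 0.04, standard error 0.22).

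Kcnc1, whose channel allows fast-spiking neurons to repolarize quickly, was at 24.5, 27.5 and 31.4 CPM in IP and at 116, 136 and 91.3 CPM in Input (−2.06, standard error 0.16). The groups did not overlap. Kcnt1, a sodium-activated channel, was at 6.54, 5.85 and 8.39 CPM in IP and at 35.7, 42.8 and 36.4 CPM in Input (−2.48, standard error 0.15). The acid-sensitive leak channel genes showed the same direction. Kcnk9 was at 1.13, 1.77 and 1.76 CPM in IP and at 7.80, 8.23 and 7.09 CPM in Input (−2.32, standard error 0.20), and Kcnk3 was at 4.92, 5.21 and 4.52 CPM in IP and at 21.9, 21.1 and 14.8 CPM in Input (−1.99, standard error 0.17). Kcnj6, a G-protein-gated inward rectifier, was at 5.49, 5.58 and 5.58 CPM in IP and at 27.7, 26.0 and 23.0 CPM in Input (−2.22, standard error 0.12). All libraries of the IP lay below those of the Input for these 4 genes. Kcnj4 was at 21.9, 28.7 and 31.5 CPM in IP and at 97.0, 133 and 86.8 CPM in Input (−1.96, standard error 0.18), again without overlap.

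These 10 genes, and the 6 enriched genes given with every library, passed under all 14 alternatives run. Further genes were lower in IP, with log2 fold changes from −2.29 to −0.42. They included Kcna1 to Kcna6, Kcnb2, Kcnc2, Kcnc4, Kcnd1 to Kcnd3, Kcnf1, Kcng1, Kcng3, Kcns1, Kcns2, Kcnv1, Kcnq1, Kcnq3, Kcnq5, Kcnh5, Kcnh7, Kcnj2, Kcnj3, Kcnj5, Kcnj11 to Kcnj13, Kcnk4, Kcnk5, Kcnk6, Kcnk12, Kcnk13, Kcnn1 and Kcnt2. Of these, Kcng3, Kcnj5, Kcnj13 and Kcnk5 reached the filter on low counts only in Input libraries, so that the call of these 4 genes adds no support. The smallest of these changes were those of Kcnd2 (−0.42, standard error 0.12), Kcnj3 (−0.43, standard error 0.11), Kcna2 (−0.45, standard error 0.092) and Kcnq5 (−0.47, standard error 0.10).

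Kcnq1, a channel best known from the heart, was at 33.0 to 52.2 CPM in P24 Ctrl bulk but at 1.95 to 2.74 CPM in Ctrl Input. Kcnq1ot1, an antisense gene within the span of Kcnq1, was at 26.2 to 42.8 CPM in the same bulk libraries and at 0.723 to 1.44 CPM in Ctrl Input. The strand setting of the counting is not given in the sources used here, and reads of the overlapping genes cannot be told apart.

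The second comparison asked whether potassium channel messages differed between cKO and Ctrl cortex at P24. Of the 62 genes tested, 2 passed (3.23%, with 1.72% of all 22494 genes tested), both lower in cKO (0.462% of all genes were lower). In bulk tissue, fewer cells of a type and less RNA per cell cannot be told apart. Kcnd2 and Kcnj4 were the 2 genes, and both differences were small.

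Kcnd2, whose product carries the A-type current of neuronal dendrites, was at 114, 110, 105 and 112 CPM in Ctrl mice and at 96.1, 86.5, 87.0 and 93.5 CPM in cKO mice. All cKO values lay below all Ctrl values. The log2 fold change was −0.28 (standard error 0.053, adjusted p = 0.0192 from edgeR), 1.22-fold lower. The gene (ENSMUSG00000060882) lies on the plus strand of chromosome 6 from 21215503 to 21729805, where its span holds 3 further gene models on the same strand. Kcnj4 (ENSMUSG00000044216), on the minus strand of chromosome 15 from 79483714 to 79505241, was at 114, 105, 109 and 119 CPM in Ctrl mice and at 93.0, 96.6, 94.0 and 91.7 CPM in cKO mice. Again the groups did not overlap, and the log2 fold change was −0.25 (standard error 0.051, adjusted p = 0.0304), 1.19-fold lower. These calls were not held by every subset of the mice: Kcnd2 lost it without Ctrl replicate 1, 2 or 4 or cKO replicate 2 or 3 (adjusted p between 0.0591 and 0.0774), and Kcnj4 without Ctrl replicate 1, 3 or 4 or cKO replicate 2, 3 or 4 (between 0.0653 and 0.112). Kcnd2 also lost it with all 16 bulk libraries in a single fit (adjusted p = 0.322), and Kcnj4 with the likelihood ratio test (0.0617), with library size alone (0.0584) and with the replicate block (0.0650).

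The other 60 genes did not pass at P24. At an unadjusted p under 0.05 the count was 13 of 62 (13.2% of all genes tested), 12 of them lower (5.98% of all genes). Besides the 2 called genes these were Kcnf1 (−0.20), Kcnc1 (−0.18), Kcnk10 (−0.33), Kcnh2 (−0.23), Kcnk3, Kcnk12, Kcnq1, Kcnd3, Kcnj3 and Kcnn3, and the higher gene was Kcnu1 (0.43, adjusted p = 0.336). The log2 fold change was negative for 46 of the 62 genes, with a median of −0.09 beside 0.00049 over all genes tested. By family the median ranged from −0.02 for the 5 KCNQ genes to −0.16 for the 8 ether-a-go-go genes, leaving aside Kcne1l as the lone accessory gene tested (−0.48, adjusted p = 0.542). None of the 7 neuronal, 4 excitatory and 7 interneuron markers passed in this comparison, while 5 of 7 astrocyte markers did: Gfap (2.51), Aqp4 (1.25) and Aldh1l1 (1.18) were higher and Slc1a2 (−0.41) and Slc1a3 (−0.40) lower, with sums of 3683 to 4321 CPM in Ctrl and 4007 to 4162 CPM in cKO mice. The summed neuronal markers were at 4927 to 5157 CPM in Ctrl and 4619 to 4939 CPM in cKO mice, and the interneuron markers at 577 to 760 and 509 to 607 CPM. Their part in the potassium channel values was not tested.

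At P17 none of 60 potassium channel genes passed edgeR's quasi-likelihood test (0.0943% of all 21201 genes did), and none passed with the likelihood ratio test, with DESeq2 or with the replicate number as a block. At an unadjusted p under 0.05 there was 1 gene, Kcng1 (3.99% of all genes tested), with a log2 fold change of 0.15. With the replicate number as a block, which was taken to pair the mice at this age, there were 4 (Kcnb2, Kcng1, Kcng4 and Kcnt1; adjusted p from 0.400 to 0.676), and 109 genes in all passed in place of 20. The median was 0.0075, beside −0.0037 over all genes, and the median standard error of 0.11 was somewhat wider than the 0.087 at P24. Kcnd2 was at 165, 129, 96.1 and 106 CPM in Ctrl mice and at 140, 127, 107 and 110 CPM in cKO mice (log2 fold change −0.03, standard error 0.15). Kcnj4 was at 117, 116, 103 and 130 CPM in Ctrl and at 114, 118, 112 and 124 CPM in cKO mice (0.0093, standard error 0.073). In both genes the groups overlapped widely, and the sign changed with single libraries left out (Kcnd2 from −0.14 to 0.13, Kcnj4 from −0.04 to 0.06 over 15 alternatives).

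Whether the effect differed between the ages was tested as an interaction over all 16 bulk libraries. None of the 63 potassium channel genes passed edgeR's test (0.0470% of all 23395 genes did), nor with the likelihood ratio test or DESeq2. At an unadjusted p under 0.05 there were 5 (6.33% of all genes): Kcnj4, Kcng1, Kcnf1, Kcnj14 and Kcnk10, and 10 with the replicate block. For Kcnj4 the difference between the P24 and the P17 log2 fold change was −0.26 (standard error 0.090, adjusted p = 0.601 from edgeR) and for Kcnd2 −0.25 (standard error 0.17, adjusted p = 0.902). A difference between P24 and P17 is thus not shown for either gene.

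**Figure D3:**
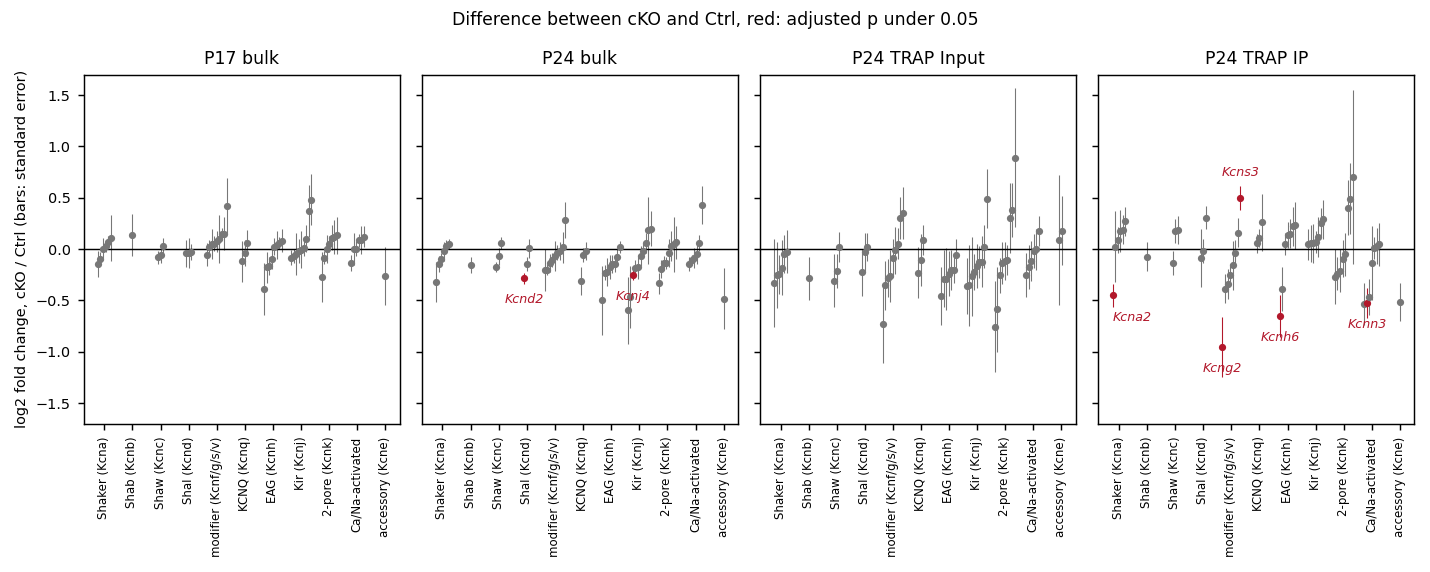
Log2 fold change between cKO and Ctrl (vertical axis, standard errors as bars) of tested potassium channel genes by family (horizontal axis) in each of 4 experiments, with red for an adjusted p under 0.05. Kcnd2 and Kcnj4 are marked in P24 bulk, 5 genes in the IP and none in P17 bulk or Input.

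The third comparison asked how the messages on tagged ribosomes differed between cKO and Ctrl mice. Of 58 potassium channel genes tested in IP, 5 passed (8.62%, with 20.0% of all 23864 genes tested). Kcns3 was the 1 higher gene (1.72%, with 11.6% of all genes), and Kcna2, Kcng2, Kcnh6 and Kcnn3 were the 4 lower ones (6.90%, with 8.42% of all genes). The share called was thus below that of all genes tested. When all 12 TRAP-Seq libraries shared a single fit, none of the 5 passed (adjusted p from 0.0503 to 0.109). The median log2 fold change was 0.03, beside −0.01 over all genes. With library size alone in place of TMM factors, 11 genes passed, again 1 of them higher (9.09% of those called, against 20.0%), and the median of all genes moved to −0.13. Over all genes tested, 5532 passed with library size alone and 4782 with TMM factors.

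Kcns3 (ENSMUSG00000043673), on the minus strand of chromosome 12 from 11090202 to 11151056, was at 44.4, 45.5 and 40.8 CPM in Ctrl IP and at 59.6, 71.4 and 53.1 CPM in cKO IP. Every cKO value exceeded every Ctrl value. The log2 fold change was 0.50 (standard error 0.12, adjusted p = 0.0117), 1.42-fold higher, and the call held without each library in turn. In Input, Kcns3 was at 29.4, 30.2 and 27.4 CPM in Ctrl and at 47.5, 29.0 and 30.7 CPM in cKO mice, where the high value belonged to cKO replicate 1. Kcns3 encodes a modifier that joins Shab channels and slows their closing. The Shab gene Kcnb2 did not pass in IP, with a log2 fold change of −0.07.

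Kcna2, which encodes a Shaker channel of axons, was at 79.8, 76.8 and 72.0 CPM in Ctrl IP and at 63.9, 49.97 and 52.5 CPM in cKO IP, without overlap. The log2 fold change was −0.45 (standard error 0.11, adjusted p = 0.0148), 1.37-fold lower. It lost the call without Ctrl replicate 1 (adjusted p = 0.0592) or cKO replicate 2 (adjusted p = 0.0747). The other 5 Shaker genes had positive log2 fold changes up to 0.27 that did not pass. Kcna2 (ENSMUSG00000040724) lies on the plus strand of chromosome 3 from 107101146 to 107115005.

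Kcnn3 (ENSMUSG00000000794), on the plus strand of the same chromosome from 89520164 to 89675132, was at 13.7, 18.5 and 14.1 CPM in Ctrl IP and at 10.3, 10.5 and 11.2 CPM in cKO IP. The groups did not overlap, and the log2 fold change was −0.53 (standard error 0.14, adjusted p = 0.0237), 1.44-fold lower. The call was lost without Ctrl replicate 2, the highest library (−0.37, adjusted p = 0.104), or without cKO replicate 1 or 2 (adjusted p = 0.0649 and 0.0847). Kcnn3 and Kcns3 were the 2 genes that were both enriched in Ctrl IP and called between genotypes there. Both comparisons used the same Ctrl IP libraries, so that their results are not independent. Kcnn2, the highest per length in the Ctrl IP, differed by 0.01 on the log2 scale (standard error 0.10) between genotypes.

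Kcng2, a modifier, was at 3.95, 2.38 and 5.73 CPM in Ctrl IP and at 2.13, 2.37 and 1.71 CPM in cKO IP, so that the lowest Ctrl and the highest cKO library were almost level. Its log2 fold change was −0.95 (standard error 0.29, adjusted p = 0.0413), and without Ctrl replicate 3, the highest library, it was −0.61 (adjusted p = 0.159). It also lost the call without Ctrl replicate 1 or any of the cKO replicates (adjusted p between 0.0808 and 0.117). Kcng2 overlaps other annotated genes on both strands. Kcnh6 (ENSMUSG00000001901), an ether-a-go-go channel on the plus strand of chromosome 11 from 106008124 to 106034549, was at 9.81, 6.41 and 11.4 CPM in Ctrl IP and at 5.03, 6.84 and 5.62 CPM in cKO IP. Here the groups overlapped, and the difference of −0.65 on the log2 scale passed the test narrowly (standard error 0.21, adjusted p = 0.0486). It did not pass without Ctrl replicate 1 or 3 or without any cKO replicate (adjusted p between 0.0689 and 0.172).

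**Figure D4:**
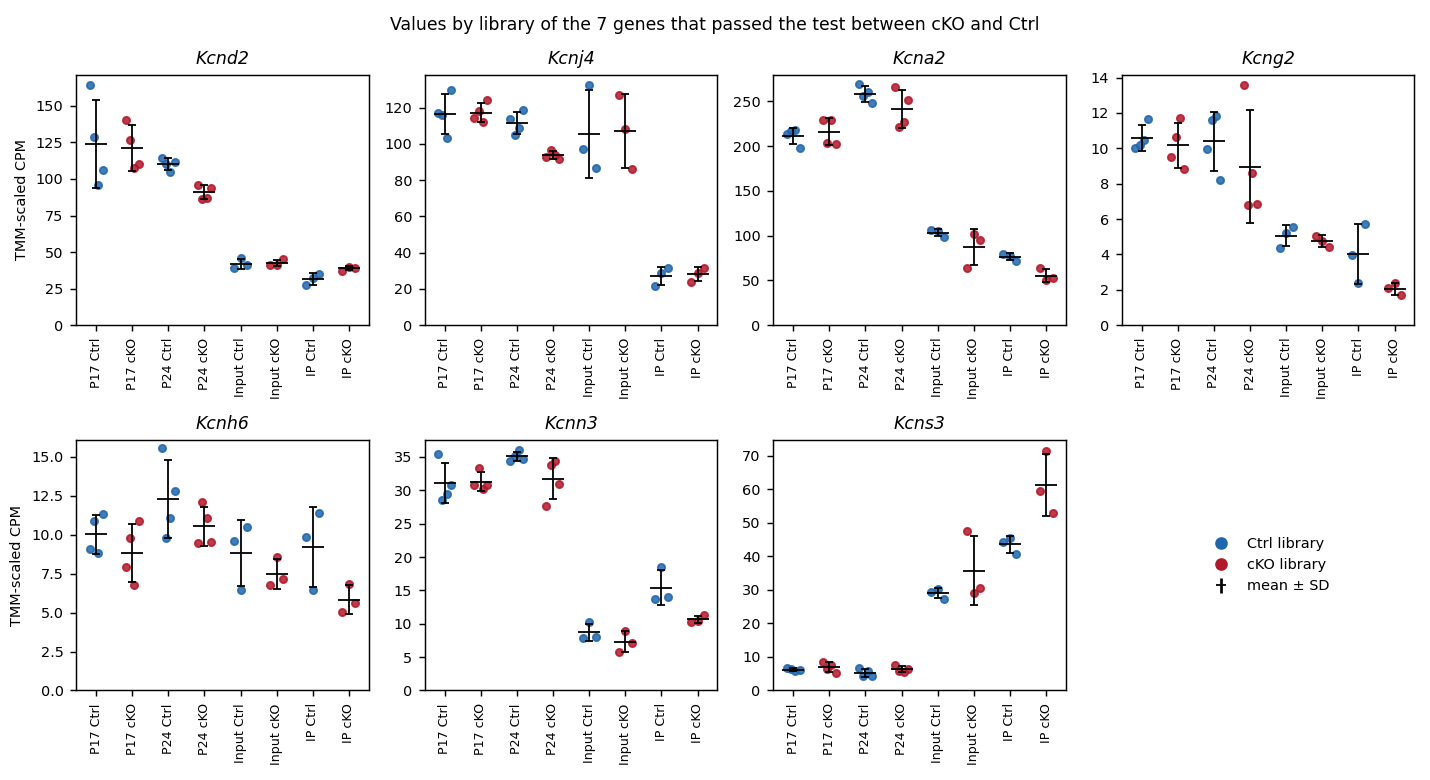
TMM-scaled CPM (vertical axis, from 0) of the 7 potassium channel genes that passed a test between cKO and Ctrl, in each library of the 8 groups (horizontal axis), with mean ± SD in black; bulk and TRAP-Seq tables were scaled separately. In P24 bulk the cKO values of Kcnd2 and Kcnj4 lie below the Ctrl values, and in IP the cKO values of Kcns3 lie above them.

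Among genes that came close in IP were Kcne1l (−0.52, adjusted p = 0.0676), Kcng4 (−0.39, adjusted p = 0.0782), Kcnt2 (−0.46, adjusted p = 0.0811), Kcnt1 (−0.53, adjusted p = 0.0928) and Kcnd2 (0.30, adjusted p = 0.0806). Kcne1l was at 18.2, 24.9 and 16.8 CPM in Ctrl IP and at 11.2, 13.6 and 16.9 CPM in cKO IP, and Kcng4 at 15.9, 15.96 and 14.7 CPM and at 12.1, 9.62 and 13.6 CPM. The groups overlapped by a single library in Kcne1l and did not overlap in Kcng4. Kcnd2 was at 27.3, 32.4 and 35.3 CPM in Ctrl IP and at 37.3, 40.0 and 39.4 CPM in cKO IP. Its groups did not overlap either, with the cKO values higher here and lower in P24 bulk. All 7 inward rectifiers tested in IP had positive log2 fold changes, from 0.05 to 0.29, and none passed. In the same comparison 2 of 7 neuronal markers (Syp, −0.43, and Tubb3, −0.58) and 1 of 4 excitatory markers (Camk2a, −0.38) were lower in cKO, and 1 of 7 interneuron markers (Pvalb, 0.58) and 1 of 4 pericyte and smooth muscle markers (Rgs5, 0.88) were higher. The sums were 2296 to 2789 CPM in Ctrl and 2341 to 2440 CPM in cKO for neuronal markers, 421 to 503 and 359 to 376 CPM for excitatory markers, 169 to 214 and 175 to 184 CPM for interneuron markers, and 19.3 to 29.0 and 26.0 to 35.02 CPM for pericyte and smooth muscle markers. Of 7 astrocyte markers Gfap was higher (0.76) and Slc1a2 (−0.71) and Slc1a3 (−0.95) were lower, with sums of 9799 to 12348 and 10077 to 12902 CPM. No marker of these lists was at 0 in a whole group. Their part in the values of Kcna2, Kcnn3, Kcng2, Kcnh6 and Kcns3 was not tested.

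In the Input of the same mice none of 62 potassium channel genes passed edgeR's test between cKO and Ctrl (0.109% of all 23828 genes did), with none at an unadjusted p under 0.05 (4.04% of all genes) and none with the likelihood ratio test or DESeq2. The log2 fold change was negative for 48 of 62 genes, with a median of −0.17, beside 0.0065 over all genes tested. Without Input cKO replicate 1 it was negative for 37 of 63 genes, with a median of −0.03, beside −0.0085 over all genes, and again none called. Kcnd2, lower in P24 cKO bulk, was at 38.8, 45.8 and 41.4 CPM in Ctrl Input and at 41.1, 41.5 and 45.0 CPM in cKO Input. Kcnj4, also lower in that bulk tissue, was at 97.0, 133 and 86.8 CPM and at 127, 108 and 86.2 CPM. In both genes the Input groups overlapped. Kcna2 was at 107, 105 and 98.6 CPM in Ctrl Input and at 64.1, 101 and 95.7 CPM in cKO Input, where the low value was that of replicate 1. Input thus gave no called difference with or without this library, while its median standard error of 0.22, or 0.16 without the library, exceeded the 0.087 of P24 bulk.

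Whether the cKO effect differed between IP and Input was tested over the 12 TRAP-Seq libraries. None of 64 potassium channel genes passed edgeR's test (0.0582% of all 25768 genes did), nor with the likelihood ratio test or DESeq2, and 3 had an unadjusted p under 0.05 (8.74% of all genes): Kcng2, Kcng4 and Kcnk5. Without Input cKO replicate 1 none of 65 passed and 7 had an unadjusted p under 0.05, among them Kcna2, Kcng2 and Kcns3. For Kcns3 the interaction was 0.19 (standard error 0.25, adjusted p = 0.911), and without that library 0.45 (standard error 0.17, adjusted p = 0.183). For Kcna2 it was −0.21 (standard error 0.23, adjusted p = 0.885), and −0.39 without the library (standard error 0.15, adjusted p = 0.187). For Kcnn3 it was −0.28 (standard error 0.26, adjusted p = 0.853), and −0.42 without it (standard error 0.23, adjusted p = 0.382). A difference in effect between IP and Input is therefore not shown for these genes with edgeR, with or without the library. These values come from fits without a term for the mouse, though each mouse gave both an IP and an Input library. With the mouse as a block over all 12 libraries, none of the 64 genes passed either, and 4 had an unadjusted p under 0.05.

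Potassium channel genes outside the rule and partners of potassium channels were followed as a list of 22 genes. Among them were the calcium-activated channel gene Kcnma1 with its subunits, the cytoplasmic subunits Kcnab1 to Kcnab3 and Kcnip1 to Kcnip4, the sulfonylurea receptors and the Shaker-clustering Cntnap2. Of 19 tested, none passed between genotypes in P24 bulk, P17 bulk or Input with edgeR. In Ctrl IP against Input 15 of 19 were lower (35.7% of all genes tested were), with Abcc8, the partner of Kcnj11, at −3.33, Kcnab2, a partner of Shaker channels, at −2.56 and Dpp6, a partner of Shal channels, at −2.31. Kcnmb1, the smooth muscle subunit of Kcnma1, was the 1 higher gene (2.29, standard error 0.48), but it is not counted on here. Its levels were 0.977, 0.604 and 0.897 CPM in Ctrl IP and 0.211, 0.222 and 0.0513 CPM in Ctrl Input. It thus reached the filter on low counts only through the IP libraries. Between genotypes in IP 2 of 19 passed (20.0% of all genes tested did), both higher (11.6% of all genes). Kcnip2, a calcium-binding partner of Shal channels, rose by 0.36 on the log2 scale (standard error 0.11, adjusted p = 0.0472), and Cntnap2 rose by 0.57 (standard error 0.087, adjusted p = 0.00157).

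Promoter sequence was read for 52 of the 76 genes from a RefSeq table of GRCm38.p6, as the 250 bases before the RefSeq start, which for Kcnd2 lies upstream of the annotated gene start given above. Such stretches are given for genes the comparisons turned on, Kcnd2 and Kcnj4, which were lower in P24 cKO bulk, and Kcnn3 and Kcng4, which were enriched in Ctrl IP. They are on the plus strand at chr6:21215096-21215345 for Kcnd2 and chr3:89519914-89520163 for Kcnn3, and on the minus strand at chr15:79505242-79505491 for Kcnj4 and chr8:119635681-119635930 for Kcng4. Capitals mark the GC box GGGCGG on either strand, and every sequence runs 5′ to 3′ of its gene.
Kcnd2: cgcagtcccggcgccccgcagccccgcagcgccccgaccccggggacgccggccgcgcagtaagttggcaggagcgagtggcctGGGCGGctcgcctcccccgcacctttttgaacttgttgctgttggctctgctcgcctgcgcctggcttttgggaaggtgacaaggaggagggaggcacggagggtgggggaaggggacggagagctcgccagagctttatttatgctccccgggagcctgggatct
Kcnj4: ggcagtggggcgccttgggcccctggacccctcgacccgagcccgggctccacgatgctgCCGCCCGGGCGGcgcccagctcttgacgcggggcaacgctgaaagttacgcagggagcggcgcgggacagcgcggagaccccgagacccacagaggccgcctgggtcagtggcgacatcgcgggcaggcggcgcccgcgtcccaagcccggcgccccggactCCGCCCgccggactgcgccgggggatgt
Kcnn3: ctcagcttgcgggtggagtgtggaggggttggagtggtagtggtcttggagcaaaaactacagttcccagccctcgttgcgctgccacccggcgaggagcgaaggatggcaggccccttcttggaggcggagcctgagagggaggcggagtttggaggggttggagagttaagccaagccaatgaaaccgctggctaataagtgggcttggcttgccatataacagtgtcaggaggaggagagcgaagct
Kcng4: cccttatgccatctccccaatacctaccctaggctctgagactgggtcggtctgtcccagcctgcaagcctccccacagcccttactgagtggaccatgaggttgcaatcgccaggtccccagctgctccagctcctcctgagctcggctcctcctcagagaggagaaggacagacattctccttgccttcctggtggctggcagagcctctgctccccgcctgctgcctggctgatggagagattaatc
The GC box occurred 1 time before Kcnd2, 3 times before Kcnj4 and in neither of the other genes, and CG dinucleotides numbered 22, 35, 10 and 4 before Kcnd2, Kcnj4, Kcnn3 and Kcng4. Over the 52 genes 51.9% held a GC box, against 32.7% of 32851 promoters, and the median number of CG dinucleotides was 9.5 against 6. The 52 were protein-coding genes with 1 start each. The 32851 were all RefSeq entries, without a limit to protein-coding genes or to 1 start per gene, so that the 2 sets are unlike. The TATA box TATAAA was in 1.92% of the 52 and in 12.4% of all promoters, the E box CACGTG in 7.69% and 6.02%, and the AP-1 motif TGANTCA in 1.92% and 6.75%, on either strand and without regard to overlap between motifs. The cAMP-response motif TGACGTCA was found before none of the 52, and 1.55% of all promoters held it.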

How the data were processed

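Reads had been aligned by the authors to mm10 (RNA STAR, Galaxy), and the deposited values are raw counts for Ensembl genes, with separate tables for P24 bulk, P17 bulk and TRAP-Seq; the counting tool, strand setting and annotation are not given in the sources used here. The deposited tables list 53342 identifiers, of which 53237 have a symbol and position in GENCODE M21 (GRCm38). A single identifier of the P24 table that was cut short was left out (0.000111% of its counts). Each library came from 1 mouse. The bulk tables give the age in their names.

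Counts were fitted in R 4.3.3 with edgeR 4.0.16: TMM factors, filterByExpr (minimum count 10, minimum total 15, proportion 0.7), glmQLFit and glmQLFTest, two-sided, with Benjamini-Hochberg adjustment over all genes tested and a threshold of 0.05. CPM values were TMM-scaled within a table, and per-kb values divided by annotated exonic length. The potassium channel genes, families and marker lists were chosen with earlier results of these data known. Genes given with every library were those called in bulk, Input or an interaction and, in either IP comparison, the up to 12 largest changes in each direction with a mean log2 CPM of at least 0. Per family, the up to 3 highest genes per length were named. Scripts were tested on simulated data.

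Same-numbered Ctrl IP and Input libraries came from 1 mouse. At P17, deviations from the group means correlated across genes at 0.167 to 0.380 between cKO and Ctrl libraries with the same number, so the numbers were taken as pairs there. Alternatives were edgeR's likelihood ratio test, DESeq2 1.42.0, RLE factors, library size alone, no filter beyond 1 count, the replicate block, all bulk or TRAP-Seq libraries in a single fit and leaving out each library. Values of some genes, the targeted gene among them, are not reported here and not drawn, though they stay in the fits and counts.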

Additional observations from a re-analysis of the deposited data

How the results depend on the processing

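The count of potassium channel genes lower in cKO bulk at P24 was 2; it was 4 with DESeq2 (Kcnd2, Kcnj4, Kcnc1 and Kcnf1), 1 with the likelihood ratio test, with library size alone, with all 16 bulk libraries in a single fit and with the replicate block, and 0 to 3 with single libraries left out (0 without Ctrl replicate 1 or 4 or cKO replicate 2 or 3, and 1 without Ctrl replicate 2 or 3 or cKO replicate 4). Without cKO replicate 1 it was 3 (Kcnd2, Kcnj3 and Kcnj4). In cKO IP the count was 5; it was 11 with library size alone, 9 with no filter beyond 1 count, 8 with the replicate block, 0 with all 12 TRAP-Seq libraries in a single fit, and 2 to 6 with single libraries left out (2 without Ctrl replicate 1, and 3 without cKO replicate 1 or 2). The single fit without Input cKO replicate 1, an alternative chosen after seeing the data, gave 7 genes, the 5 named ones among them. The counts over all genes tested moved too. In P24 bulk 388 of all genes passed, with 604 for DESeq2, 619 for the likelihood ratio test and 410 for the replicate block. In IP 4782 of all genes passed, with 5532 for library size alone and 6735 for the replicate block. The replicate numbers were not taken as pairs of the 2 genotypes in the P24 bulk or the IP libraries. Deviations from the group means correlated there at 0.0289 to 0.219 and at 0.0355 to 0.116. The P24 bulk range overlaps that at P17 (0.167 to 0.380), so that these values do not settle whether the numbers are pairs at P24. The counts in P17 bulk, Input and both interactions were 0 under every alternative run, and that of Ctrl IP against Input stayed within 52 to 57. The block changed no other count of potassium channel genes past the adjusted threshold by more than 1.5 times, most of these being 0. At an unadjusted p under 0.05 it moved their count from 1 to 4 at P17 and from 5 to 10 for the age interaction. Over all genes tested, the block moved the count past the adjusted threshold from 20 to 109 at P17 and from 11 to 55 for the age interaction. That count went from 26 to 8 in Input and from 15 to 6 for the interaction of fraction and genotype. No log2 fold change of a gene called between genotypes, or given with every library for Ctrl IP against Input, changed sign in that comparison; those of Kcnd2 and Kcnj4 at P17 did. Depth limits low genes such as Kcnn4.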
